A study of Mus musculus with 6 samples.

Results

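Nos2, Duox2, Duoxa2, Nox1 and Gpx2 are 5 genes of the gut epithelium whose products make or remove nitric oxide and hydrogen peroxide. They were picked by name from 51912 genes in the tables, and all 5 were among the 13644 genes with enough counts to test. C57BL/6 mice kept in 3 ways gave small intestinal epithelial cells, which were sorted for RNA-seq, with 2 libraries for each way. SPF (specific pathogen free) mice were kept clear of particular pathogens and, as the term is used, carry a microbiota, GF (germ free) mice had none, and AF (antigen free) mice had neither a microbiota nor foreign antigens from their food. The libraries carry the numbers of their titles, which are 3 and 4 for SPF, 1 and 3 for GF, and 2 and 3 for AF. The sources used here give neither the age or sex of the mice, nor the diets, the stretch of the small intestine or the markers used for sorting. No label ties the libraries of a group to different animals, so p-values reflect the spread between these libraries, which may be technical.

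Nos2 encodes inducible nitric oxide synthase, which makes nitric oxide from arginine. Duox2, the dual oxidase, and Nox1 are NADPH oxidases of the apical epithelial membrane: Duox2 releases hydrogen peroxide into the lumen, and Nox1 makes superoxide, from which peroxide forms. Duox2 leaves the endoplasmic reticulum only with its maturation factor Duoxa2, while Nox1 needs the membrane subunit Cyba, the organizer Noxo1 and the activator Noxa1. Gpx2 is the glutathione peroxidase of the gut epithelium and reduces hydroperoxides inside the cell. Nos2 and Duox2 are known as genes that microbes and cytokines induce in the intestine, and Gpx2 is known for its high level in crypts.

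The genes lie on 4 chromosomes of GRCm38. Nos2 (ENSMUSG00000020826) is at chr11:78920787-78960254 on the plus strand and overlaps no other annotated gene. Duox2 (ENSMUSG00000068452, chr2:122279247-122298449, minus strand) and Duoxa2 (ENSMUSG00000027225, chr2:122298900-122302885, plus strand) point away from each other, with 450 bases between their 5′ ends. The bases just upstream of each, outside every annotated exon, are printed because both genes are read outward from this short stretch. They come from RefSeq on GRCm38.p6, 28 bases at chr2:122298450-122298477 for Duox2 and 250 bases at chr2:122298650-122298899 for Duoxa2, each on its gene's strand. The capitals mark a TATA box match.
Duox2: cctagctctcagttcattagcctctctc
Duoxa2: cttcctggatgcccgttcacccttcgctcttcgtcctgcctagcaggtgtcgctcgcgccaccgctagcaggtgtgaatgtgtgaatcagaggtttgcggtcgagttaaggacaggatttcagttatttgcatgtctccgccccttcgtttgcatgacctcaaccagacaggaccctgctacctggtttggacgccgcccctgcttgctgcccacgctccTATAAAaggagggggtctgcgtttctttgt

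The Duoxa2 match, TATAAA, lies 30 to 25 bases before the annotated start. Read on both strands, TATAAA is found in 12.4% of 32817 upstream windows of 250 bases. Both printed stretches and the 250 bases before Nox1 and Gpx2 were also searched on both strands for the STAT letters TTCNNNGAA (in 7.01% of all windows), the NRF2 letters TGACNNNGC (10.2%), the TCF letters CTTTGAT (3.21%) and the NF-kB motif (7.25%). Nox1 had the only other match, to the NF-kB motif, 91 to 82 bases before its RefSeq start. That start lies well inside the longer GENCODE gene given next, and the window searched was chrX:134111855-134112104. A match describes the letters of these windows only. For Duox2 just 28 bases were searched, since annotated exons took up 222 bases of its window. The lack of a match there cannot be set against shares from windows of 250 bases.

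Nox1 (ENSMUSG00000031257, chrX:134086421-134221956, minus strand) is overlapped by Cstf2, Xkrx and Arl13a, and Gpx2 (ENSMUSG00000042808, chr12:76792333-76795554, minus strand) lies inside Fntb, which is read from the plus strand. Duoxa2 shares 682 of its 1592 exon bases with exons of Duoxa1 on the opposite strand. The sources used here do not give the strand setting of the counting, so reads from opposite strands cannot be told apart at these loci. Xkrx is on the same strand as Nox1 and overlaps it by 13034 bases, so strand would not separate reads there. Gpx2 is a selenoprotein, in which a TGA codon is read as selenocysteine, the residue of the active site. The 45 bases around that codon, from the GENCODE M21 transcripts on GRCm38, are shown for Gpx2 and 3 related peroxidases because they show how alike the transcripts are where reads must be told apart. The capitals mark the TGA codon.
Gpx2: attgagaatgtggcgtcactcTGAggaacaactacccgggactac
Gpx1: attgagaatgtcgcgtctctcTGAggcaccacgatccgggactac
Gpx4: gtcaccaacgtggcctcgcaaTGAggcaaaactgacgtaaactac
Gpx3: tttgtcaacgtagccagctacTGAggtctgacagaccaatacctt

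The codon is number 40 of 190 in Gpx2 and number 47 of 201 in Gpx1. Of the 45 bases, 39 are identical between Gpx2 and Gpx1, 27 between Gpx2 and Gpx4, and 21 between Gpx2 and Gpx3. The estimated uncertainty of splitting reads between genes was small all the same. In libraries with 10 counts or more, its posterior SD reached at most 0.0345% of the count for Gpx2, 0 for Nos2, 0.196% for Duox2 and 1.60% for Duoxa2, against 9.0035% for Nox1.

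The libraries held 16109488 to 19417054 expected counts. Levels are given as CPM, the count scaled to the normalised total of its library, on which the floor of 3 counts stood at 0.109 to 0.236 CPM, and TPM, which is also scaled by transcript length, is used to compare genes. All 6 libraries held epithelial markers, with a summed level of 5446 to 6002 CPM for the 6 genes of that list, although single genes of it differed more. SPF replicate 4 stood apart, with 37.7 CPM of crypt stem cell markers against 132 to 404 CPM in the other 5 libraries, and GF replicate 3 held the most lymphocyte markers. Y-linked genes had 0 counts in both SPF libraries and were present in all 4 others, while Xist, the X-inactivation RNA of females, had 129.7 and 96.6 CPM there against at most 14.8 CPM elsewhere. Sex and group therefore cannot be told apart in comparisons with SPF, nor can diet, or the date-like mark that each group carries alone, in any comparison. Xist also differed between GF and AF, at 221 counts over the GF libraries and 3 over the AF libraries. Its GF mean was 7.45 ± 10.4 CPM (SD, n = 2 libraries), so the GF libraries were unlike each other. What this means for AF against GF was not tested.

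Nos2 had the widest range of the 5 genes. Its expected counts were 918 and 358 in SPF replicates 3 and 4, 344 and 129 in GF replicates 1 and 3, and 4 and 3 in AF replicates 2 and 3. As CPM these were 42.0 and 24.6 in SPF, 12.5 and 8.75 in GF, and 0.31 and 0.18 in AF. Both SPF libraries were above both GF libraries, which were above both AF libraries, and the AF values stood at the floor of 3 counts or just over it. The group means were 33.3 ± 12.4 CPM in SPF, 10.6 ± 2.68 CPM in GF and 0.246 ± 0.0961 CPM in AF (SD, n = 2 libraries). In these bulk samples, fewer cells that carry a transcript and less of it per cell cannot be told apart.

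**Figure D1:**
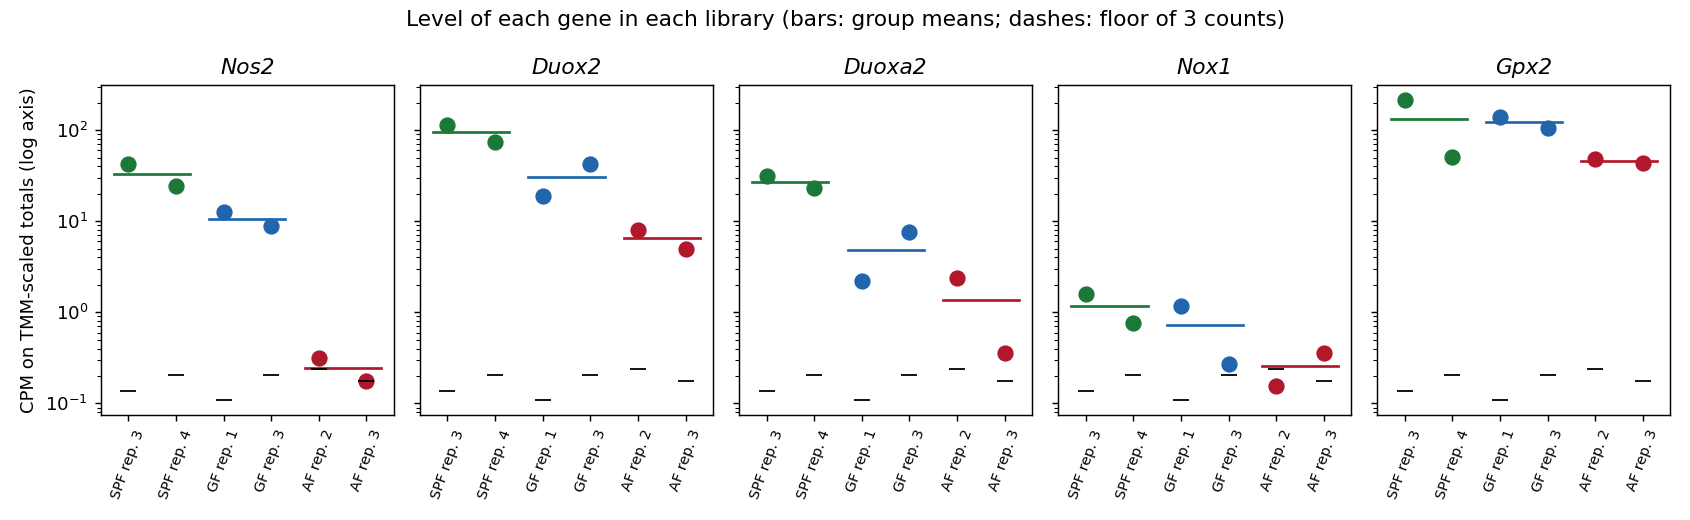
CPM (log axis) of each of the 5 genes in each of the 6 libraries, with coloured bars for the group means of 2 libraries and short black dashes for the floor of 3 counts in that library. Nos2 and Duox2 step down from SPF to GF to AF without overlap, Nos2 is at the floor in AF replicate 3 and just above it in AF replicate 2, and Nox1 is below it in AF replicate 2.

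In AF against SPF, Nos2 fell by 7.08 on the log2 scale (SE 0.51), with an adjusted p of 0.0222 by edgeR's quasi-likelihood test over all 13644 genes. It was 1 of 2 genes called lower in that comparison, which is 0.0147% of those tested. From counts alone, 1276 in SPF against 7 in AF, the ratio scaled for depth was 148, with an exact 95% binomial interval of 71.6 to 369 that covers counting error only. Nos2 also fell by 4.36 (SE 0.34) in GF and AF together against SPF, with an edgeR adjusted p of 0.0413, and was again 1 of 2 genes called lower (0.0147%). The other gene called lower in both was Isx, a homeobox factor that controls carotenoid uptake. Both calls for Nos2 were lost, with the same direction, on library totals alone (adjusted p 0.0889 and 0.121), by limma on log2(TPM + 1) (0.169 and 0.326) and when any GF or AF library was left out. Without AF replicate 2 or 3 the adjusted p against SPF was 0.405 or 0.393, each AF library left alone being taken to vary like the other groups.

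Between AF and GF, 2 groups that both lack a microbiota, Nos2 counts were 7 and 473, a ratio of 47.4 with an exact 95% binomial interval of 22.8 to 118. The fitted difference was -5.44 (SE 0.50), the third smallest p of all genes, but edgeR's adjusted p was 0.152. A fit that added the crypt score, a mean level of stem and proliferation markers, called 21 genes. In that fit the Nos2 difference was -5.37, with an edgeR adjusted p of 0.00325. Without SPF replicate 3 or SPF replicate 4 it was -5.44 or -5.45, and without single GF or AF libraries it ran from -5.85 to -5.08. DESeq2 called it, at an adjusted p of 2.35e-11. It did not pass on library totals alone, at an edgeR adjusted p of 0.235. Limma did not call it either, at adjusted p values of 0.872 on log2(TPM + 1) and 0.417 on log2(TPM + 0.1). GF against SPF gave -1.64 (SE 0.36) with an adjusted p of 0.738. Each pair of these comparisons shares the libraries of 1 group.

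Of the other nitric oxide synthases, the neuronal form Nos1 and the endothelial form Nos3 had 0 counts in all 6 libraries. Macrophages, dendritic cells and neutrophils can also express Nos2. Summed macrophage and dendritic cell markers (9 genes) were 14.4 and 8.50 CPM for SPF, 10.8 and 14.9 for GF, and 5.81 and 6.00 for AF. Within that list Fcgr1 was at 0 in all libraries but GF replicate 3, and Adgre1 and Cx3cr1 were at 0 in AF replicate 3. Of its 6 tested genes, 5 were lower and 1 higher in AF against GF, and all 6 were lower in AF against SPF. Mean CPM in SPF, GF and AF was 4.94, 4.71 and 1.78 for Itgam and 1.85, 1.87 and 0.385 for Itgax. For Cd68 it was 1.45, 0.842 and 1.23, and for Cd14 it was 1.64, 1.88 and 1.44. Of the 7 neutrophil markers, S100a8, Mpo, Elane and Ly6g were at 0 in all 6 libraries. The others, S100a9, Cxcr2 and Retnlg, had at most 7 counts in a group, and the 7 together reached at most 0.219 CPM in a library. The part of macrophages and dendritic cells in the Nos2 difference was not tested.

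Duox2 was higher than Nos2 in every library, also per transcript length. Its counts were 2509 and 1079 in SPF, 513 and 619 in GF, and 102 and 84.0 in AF. The CPM values were 114.9 and 74.0 in SPF, 18.7 and 42.0 in GF, and 8.01 and 4.99 in AF, again with no overlap between neighbouring groups. Group means were 94.5 ± 28.9, 30.3 ± 16.5 and 6.501 ± 2.14 CPM (SD, n = 2 libraries). Against SPF the AF level was 14.6-fold lower (log2 -3.87, SE 0.51), the 17th smallest p of all genes, with an edgeR adjusted p of 0.198. This difference was -3.52 without SPF replicate 3, -4.24 without AF replicate 2 and -3.58 without AF replicate 3. It passed the threshold with the crypt score in the model, at -3.89 and an edgeR adjusted p of 0.0354, in a fit that called 140 genes. DESeq2 called it too, at an adjusted p of 1.29e-10. It did not pass on library totals alone (edgeR adjusted p 0.103) or by limma on log2(TPM + 1) (adjusted p 0.120). AF against GF gave -2.22 (SE 0.48, adjusted p 1.00) and GF against SPF -1.64 (SE 0.46, adjusted p 0.738) in edgeR's test, which without GF replicate 3 became -1.53 and -2.34.

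Duoxa2, without which Duox2 is not active at the cell surface, had 681 and 334 counts in SPF, 61 and 111 in GF, and 30 and 6 in AF. In CPM these were 31.2 and 22.9 in SPF, 2.22 and 7.53 in GF, and 2.36 and 0.36 in AF. Both SPF libraries were above all others, while GF and AF overlapped, since AF replicate 2 was just above GF replicate 1. Group means were 27.0 ± 5.85, 4.88 ± 3.75 and 1.36 ± 1.41 CPM (SD, n = 2 libraries). GF against SPF gave the lowest of the 5 genes' differences there, -2.49 (SE 0.85), with an edgeR adjusted p of 0.738. AF against SPF gave -4.36 (SE 0.95, adjusted p 0.349) and AF against GF -1.87 (SE 0.90, adjusted p 1.00). Single libraries moved all 3 values: AF against GF was -3.73 without AF replicate 2, -1.04 without AF replicate 3 and -0.76 without GF replicate 3. Leaving out GF replicate 3 took GF against SPF to -3.61 and leaving out GF replicate 1 took it to -1.85, and AF against SPF was -6.22 without AF replicate 2 and -3.54 without AF replicate 3.

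Per transcript length, Duoxa2 stood at the level of Duox2 in SPF and below it in GF. The ratio of their TPM was 1.01 and 1.17 in SPF, 0.426 and 0.673 in GF, and 1.11 and 0.242 in AF. The 2 AF values lay far apart, with only 30 and 6 Duoxa2 counts behind them. The paralogous pair was nearly silent: Duox1 had at most 10.2 counts and Duoxa1 at most 16.9 counts in a library, and Duoxa1 had 0 in both AF libraries. Duoxa1 was highest in SPF replicate 3, where Duoxa2, with which it shares exon bases, was highest too.

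Across the 6 libraries, Pearson's r of log2 CPM was 0.965 between Duox2 and Duoxa2 and 0.94 between Nos2 and Duox2, the highest of the 10 pairs of these genes. The lowest, 0.494, was between Duoxa2 and Gpx2. These are descriptions over 6 points that share their groups, depth and cell make-up. Nos2 nevertheless did not keep a fixed share of Duox2. The TPM ratio of Nos2 to Duox2 was 0.482 and 0.443 in SPF, 0.845 and 0.276 in GF, and 0.0556 and 0.0505 in AF. It was lower in both AF libraries than in any other, with only 4 and 3 Nos2 counts behind the AF values.

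Counted as libraries that do not overlap, 3 of the 5 genes were lower in GF than in SPF (Nos2, Duox2 and Duoxa2), against 17.1% of all genes tested. In AF below GF there were 3 (Nos2, Duox2 and Gpx2), against 17.8%, and in AF below SPF all 5, against 22.6%. Nos2 and Duox2 also had the full order of SPF above GF above AF, which 4% of all genes had. No gene was called lower in GF against SPF (0% of 13644), where edgeR's unadjusted p was under 0.05 for 479 genes with a lower level, among them Nos2, Duox2 and Duoxa2, and where DESeq2 called 80 genes in either direction, Nos2 among them at an adjusted p of 0.0492. AF against GF had 1 gene called lower, 0.00733% of those tested, and it was none of these 5. There edgeR's unadjusted p was under 0.05 for 283 genes with a lower level, among them Nos2 and Duox2. DESeq2 called 51 genes in either direction in AF against GF, Nos2 and Duox2 among them. With edgeR's test the median difference of the 5 was -1.64 in GF against SPF, -1.87 in AF against GF and -3.87 in AF against SPF, while the medians of all genes were 0.02, -0.02 and 0.01.

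**Figure D2:**
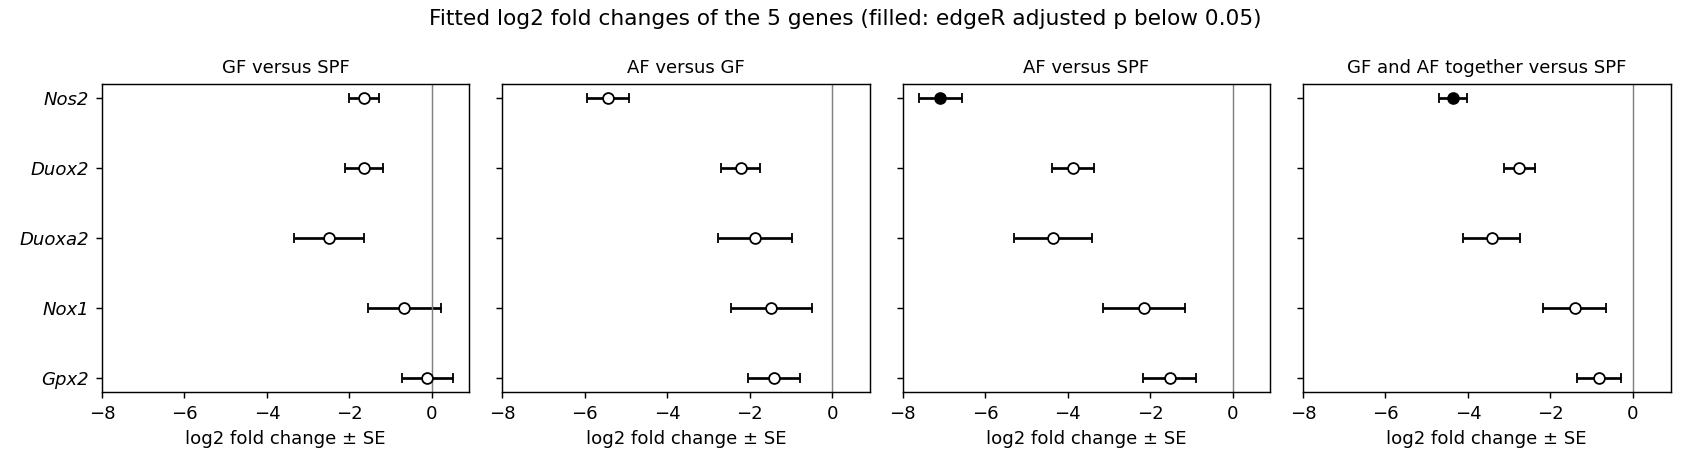
Fitted log2 fold changes with their standard errors for the 5 genes in the 4 comparisons, filled where edgeR's adjusted p was below 0.05. Every point lies below 0, and only Nos2 is filled, in AF versus SPF and in GF and AF together versus SPF.

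Nox1 was near the limit of detection. Its counts were 35.1 and 11.4 in SPF, 31.8 and 4.2 in GF, and 1.5 and 5.66 in AF, so AF replicate 2 was under the floor of 3 counts. In CPM these were 1.60 and 0.75 in SPF, 1.17 and 0.27 in GF, and 0.16 and 0.36 in AF. SPF and GF overlapped, and GF replicate 3 lay between the 2 AF libraries. The AF difference was -2.15 (SE 0.99) against SPF and -1.47 (SE 0.98) against GF, with edgeR adjusted p values of 0.475 and 1.00. Without GF replicate 1 the difference between AF and GF was -0.04, and without GF replicate 3 it was -2.12. GF against SPF gave -0.67 (SE 0.88), which became -2.11 without GF replicate 1 and -0.02 without SPF replicate 3. Nox1 is on the X chromosome, and the SPF libraries differed from the others in sex-linked RNA.

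The subunits that Nox1 works with were far more abundant than Nox1 per transcript length. Noxo1, the organizer, stood at 42.8 and 18.4 TPM for SPF, 50.7 and 25.2 for GF, and 20.8 and 33.3 for AF. Nox1 itself was at 0.94 and 0.28 TPM for SPF, 0.73 and 0.12 for GF, and 0.04 and 0.13 for AF. The Noxo1 level was thus 45.6 to 520 times that of Nox1 within a library. On that scale Noxo1 overlapped in all 3 groups, and its fitted difference for AF against GF was -0.09 (SE 0.21).

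Cyba, the membrane subunit p22phox shared by Nox1 and other oxidases, was low in AF. It stood at 16.7 and 12.1 CPM for SPF, 15.2 and 14.7 for GF, and 4.32 and 5.41 for AF. SPF and GF overlapped, and both AF libraries were below all 4 others. The difference was -1.62 (SE 0.28) for AF against GF and -1.57 (SE 0.28) for AF against SPF, with edgeR adjusted p values of 1.00 and 0.304, while DESeq2 called it lower in both. Noxa1, the activator, was at 6.27 and 2.13 CPM for SPF, 6.71 and 4.41 for GF, and 2.20 and 1.31 for AF. Its lowest SPF library, replicate 4, lay within the AF range.

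Ncf1, the phagocyte organizer p47phox, was at 3.39 and 2.47 CPM for SPF, 0.62 and 7.60 for GF, and 0.39 and 0.24 for AF. It was highest in GF replicate 3 and lowest in AF, as were the summed lymphocyte markers (11 genes), at 222 and 84.8 CPM for SPF, 36.7 and 355 for GF, and 19.0 and 13.1 for AF. Their part in the Ncf1 and Cyba values was not tested. Cybb, the phagocyte oxidase itself, was low in all libraries. Its counts were 18 and 5 in SPF replicates 3 and 4, 3 and 7 in GF replicates 1 and 3, and 0 and 1 in AF replicates 2 and 3.

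**Figure D3:**
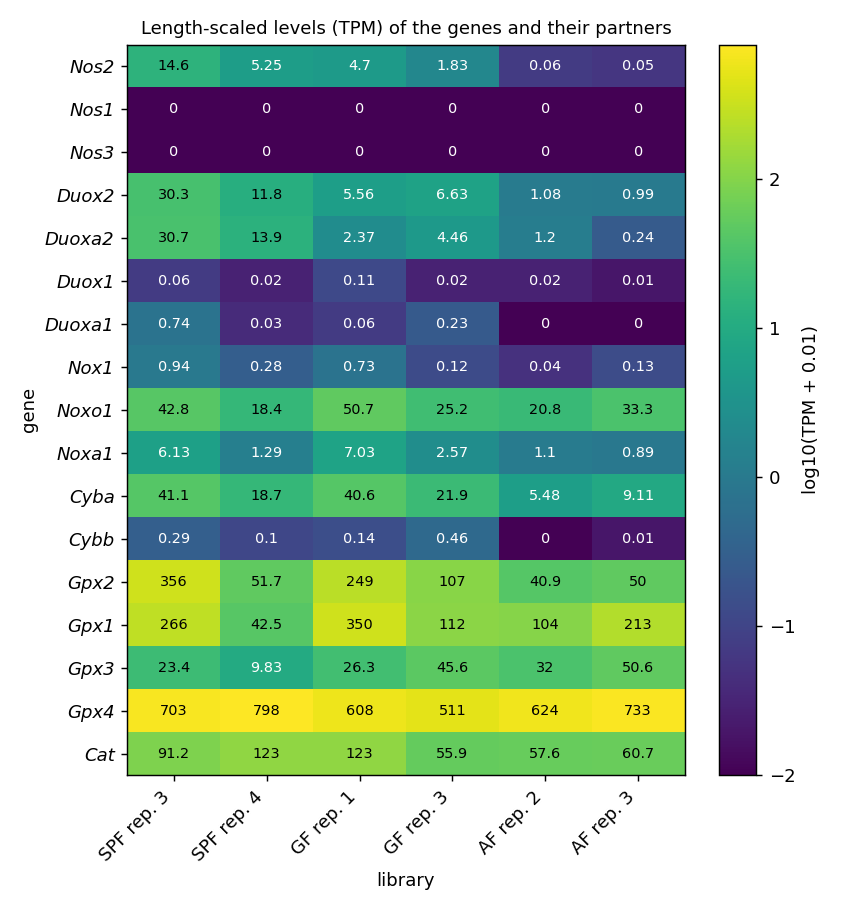
TPM of the 5 genes and their closest partners (rows) in each library (columns), printed in each cell and coloured by log10(TPM + 0.01). Nos1 and Nos3 are at 0 throughout, Nox1 is below 1 TPM in all libraries while Noxo1 is above 18, and Gpx2 is the most abundant of the 5 genes in every library.

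Gpx2 was the most abundant of the 5 genes per transcript length, at 40.9 to 356 TPM. In counts it stood at 4682 and 734 in SPF, 3790 and 1569 in GF, and 608 and 741 in AF. The CPM values were 214 and 50.3 in SPF, 138 and 106 in GF, and 47.8 and 44.0 in AF. The SPF libraries lay on both sides of the GF pair, and the AF libraries were the 2 lowest, just under SPF replicate 4. Group means were 132 ± 116, 122 ± 22.4 and 45.9 ± 2.63 CPM (SD, n = 2 libraries).

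AF against GF was 2.67-fold lower for Gpx2 (log2 -1.41, SE 0.63), with an edgeR adjusted p of 1.00. AF against SPF gave -1.53 (SE 0.63, adjusted p 0.441). That value rested on SPF replicate 3: without it the difference was -0.14, and without SPF replicate 4 it was -2.23. SPF replicate 4 was the library with the fewest crypt markers. With the crypt score in the model the difference between AF and SPF was -1.64, with an edgeR adjusted p of 0.0401. That fit called 140 genes, against 6 in the reported fit, and the part of crypt content in the Gpx2 difference was not tested further. GF against SPF gave -0.11 (SE 0.62, adjusted p 0.967), which turned to 1.28 without SPF replicate 3.

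Gpx1, the glutathione peroxidase found in most cells, was higher in the same library of each pair as Gpx2 on the TPM scale. It stood at 266 and 42.5 TPM for SPF, 350 and 112 for GF, and 104 and 213 for AF. The ratio of Gpx2 to Gpx1 was 1.34 and 1.21 in SPF, 0.711 and 0.949 in GF, and 0.392 and 0.235 in AF. Both SPF libraries were above both GF libraries, and both GF libraries above both AF libraries. This ratio was 1 of 5 computed, and with 2 libraries against 2 an exact permutation test cannot give a two-sided p below 0.333. Gpx1 alone gave 0.01 (SE 0.62) for AF against GF.

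Gpx4, which protects membrane lipids, was more abundant than Gpx2 in every library, at 703 and 798 TPM in SPF, 608 and 511 in GF, and 624 and 733 in AF. On the TPM scale SPF and AF overlapped for Gpx4, and both GF libraries were below them. That order did not hold in CPM, where group means were 408 ± 197 in SPF, 294 ± 71.7 in GF and 375 ± 50.2 in AF (SD, n = 2 libraries). Catalase (Cat), which removes peroxide in peroxisomes, was at 91.2 and 123 TPM for SPF, 123 and 55.9 for GF, and 57.6 and 60.7 for AF. In CPM it was at 160 and 348 for SPF, 199 and 162 for GF, and 195 and 155 for AF, with all groups overlapping. Gpx3, the secreted form, was at 23.8 and 16.2 CPM for SPF, 24.8 and 71.4 for GF, and 55.0 and 71.0 for AF. Its levels in AF were above those in SPF, the opposite order to Gpx2, with no overlap and a difference of 1.65 (SE 0.51), for which edgeR gave an adjusted p of 0.389.

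In the wider pathways the median differences were closer to 0. Of 91 tested genes in the 6 related lists, edgeR called 0 in each of the 4 comparisons. Its unadjusted p was under 0.05 for 6 lower and 4 higher genes in GF against SPF, 5 and 2 in AF against GF, and 12 and 4 in AF against SPF. Over all 13644 genes these counts were 479 and 437, 283 and 208, and 890 and 650. DESeq2 called 0 of these genes in GF against SPF, Cyba in AF against GF, and Cyba and Nqo1 in AF against SPF, all lower. Of 15 tested genes for nitric oxide synthases, their cofactor and arginine supply, 9 were higher and 6 lower in AF against GF, with a median of 0.18 and 1 gene at an unadjusted p under 0.05. That gene was Gch1, which makes the synthase cofactor, at 1.12 (SE 0.44), a direction opposite to that of Nos2. Ddah2, which degrades an inhibitor of the synthases, had the next smallest p, at 2.001 (SE 0.96). In the comparisons with SPF the leading gene was Qdpr, which recycles the cofactor, at 0.93 (SE 0.30) in GF and 1.04 (SE 0.30) in AF. Arginase 1 (Arg1), which uses up arginine, came next in GF at 2.34 (SE 0.95), from at most 30 counts in a library, and Spr, of cofactor synthesis, in AF at 0.50 (SE 0.19). The list's medians were 0.23 and 0.25, with 10 and 13 of 15 genes higher.

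Of 7 tested NADPH oxidase genes, 4 were lower and 3 higher in AF against GF, with a median of -0.09. Cyba, Noxa1 and Ncf1 were the 3 with an unadjusted p under 0.05. In GF against SPF only 1 of the 7 was lower and the median was 0.40, with Noxo1 at 0.37 (SE 0.21). In AF against SPF the median was -0.28. Duoxa2 and Cyba, on which Duox2 and Nox1 depend, had different patterns: Duoxa2 was below SPF in both other groups, while the GF values of Cyba lay within the SPF range. The difference between these genes was not tested.

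Of 23 tested genes of peroxide and superoxide removal, 17 were lower in GF against SPF, 13 in AF against GF and 16 in AF against SPF, with medians of -0.22, -0.05 and -0.27. Thioredoxin reductase 1 (Txnrd1) was at -0.69 (SE 0.28) in GF and -0.80 (SE 0.28) in AF against SPF. Glutathione reductase (Gsr), which supplies Gpx2 with reduced glutathione, had the smallest p for AF against GF, at -0.80 (SE 0.38), followed by the peroxiredoxin Prdx1 at -0.45 (SE 0.28).

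NRF2 is the transcription factor of the oxidative stress response, and Gpx2 is one of its known targets. Of 11 tested genes in its list, 10 were lower in GF against SPF with a median of -0.48, 5 in AF against GF with a median of 0.00, and 7 in AF against SPF with a median of -0.47. The quinone reductase Nqo1 was at 15.4 and 26.7 CPM for SPF, 18.9 and 11.1 for GF, and 5.26 and 4.46 for AF. SPF and GF overlapped and AF was below both, at -1.63 (SE 0.40) against GF and -2.12 (SE 0.40) against SPF, with edgeR adjusted p values of 1.00 and 0.304. G6pdx, a source of NADPH, was at -0.86 (SE 0.24) in AF against SPF, and the ferritin chain Fth1 at 1.15 (SE 0.51) in AF against GF. In GF against SPF the smallest p values were those of the NRF2 inhibitor Keap1, at -0.48 (SE 0.19), and malic enzyme Me1, at -1.17 (SE 0.66).

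The 17 selenoprotein and selenocysteine insertion genes, all tested, had medians of -0.08, -0.02 and -0.08 in GF against SPF, AF against GF and AF against SPF. Selenow, a small selenoprotein, was at -0.45 (SE 0.20) and the deiodinase Dio1 at -0.84 (SE 0.34) in GF against SPF. In AF against GF Selenow was at 0.67 (SE 0.21) and Secisbp2, which binds the insertion element, at 0.48 (SE 0.23). Selenon, with at most 61 counts in a library, stood at 2.32 (SE 0.70) and Selenot at -0.47 (SE 0.24) in AF against SPF. In AF against GF, and likewise in AF against SPF, 9 of the 17 were lower and 8 higher.

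A list of 18 genes held receptors and signals known to induce Nos2 and Duox2, and also brakes on such signals, among them Nfkbia and Tnfaip3. Of the 18, 15 were lower in GF against SPF, 14 in AF against GF and 16 in AF against SPF. Over all tested genes 48.1%, 52.9% and 49.1% were lower. The medians of the list were -0.28, -0.05 and -0.33, much smaller in size than the differences of Nos2 and Duox2. Il22ra1, the receptor chain for interleukin 22, was at 40.5 and 59.5 CPM for SPF, 28.8 and 35.2 for GF, and 26.6 and 20.7 for AF. All 3 groups were apart, and AF against SPF gave -1.08 (SE 0.27) with an edgeR adjusted p of 0.381. Stat3, which carries that receptor's signal, was at 111.9 and 158.8 CPM for SPF, 58.8 and 85.8 for GF, and 79.2 and 62.7 for AF. SPF was above both other groups, which overlapped, at -0.91 (SE 0.31) in GF and -0.93 (SE 0.31) in AF. Nfkbia, which restrains NF-kB, was at 0.54 (SE 0.19) in GF against SPF, and Tnfaip3, another brake on it, at -0.50 (SE 0.20) in AF against GF.

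**Figure D4:**
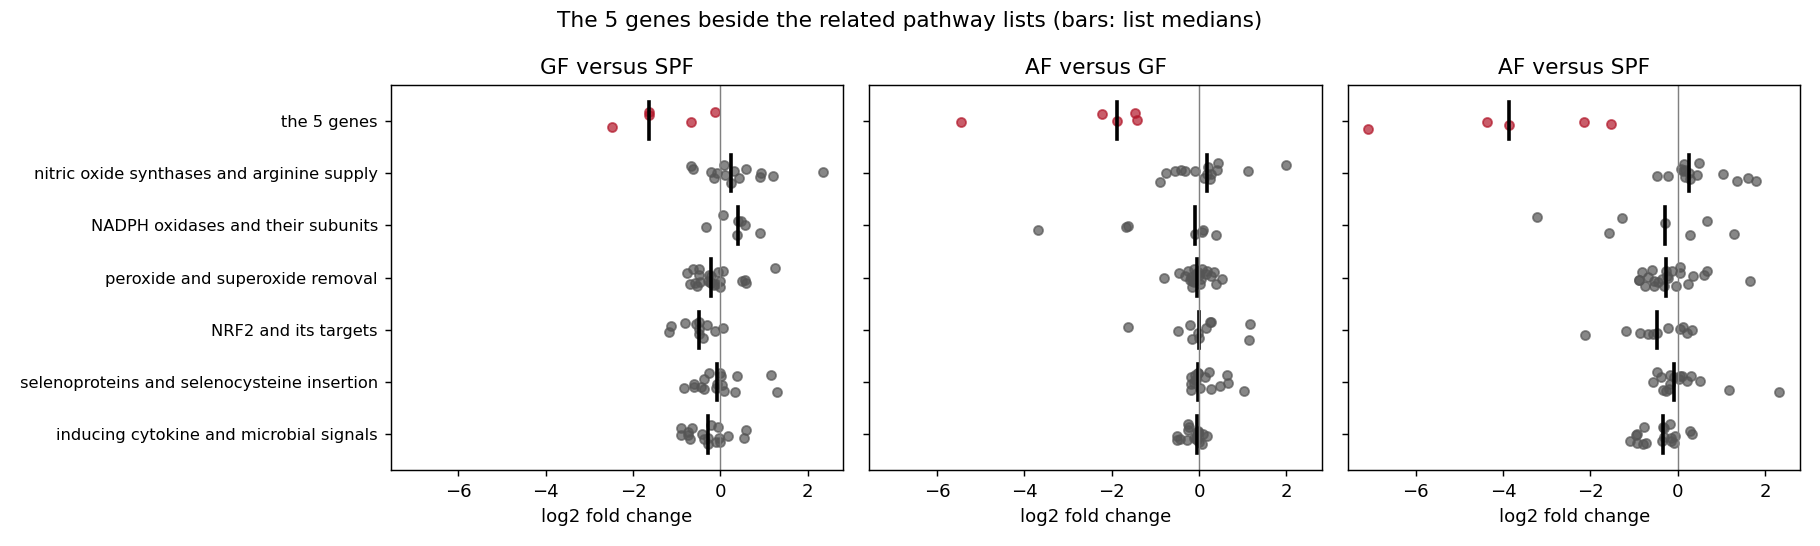
Fitted log2 fold changes of single genes (points) in each of 3 comparisons for the 5 genes (red) and 6 related lists (grey), with black bars at list medians, spread vertically only so that points can be seen. The medians of the 5 genes are -1.64, -1.87 and -3.87, while those of the other lists lie between -0.48 and 0.40.

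Genes most like each of the 5 across the 6 libraries, by Pearson's r of log2 CPM among genes with a mean of at least 5 CPM, had r of 0.974 to 0.999. For Nos2 these were Slc37a3 (0.998), Mfsd6 (0.997) and Orai1 (0.995). Their range was far smaller than that of Nos2: Slc37a3 was at 23.9 and 23.3 CPM for SPF, 22.7 and 22.2 for GF, and 19.399 and 18.7 for AF. Akap13, Churc1 and Ptk6 came closest to Duox2. Ptk6, an epithelial tyrosine kinase, had the nearest range, at 41.8 and 26.8 CPM for SPF, 11.6 and 16.08 for GF, and 7.07 and 4.87 for AF. Cdc42se1, Zc3h12a and Ceacam1 were closest to Duoxa2. Ceacam1, an adhesion molecule of the apical surface, was at 607 and 598 CPM for SPF, 306 and 387 for GF, and 268 and 209 for AF, with SPF well above the others. For Nox1 they were Ppp4r3b, Tmed10 and Eif4g1, and for Gpx2 Mmgt2, Pggt1b and Hs6st1. With 6 points of shared depth and cell make-up, and 8708 or 8709 genes searched, such values are a description.

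Cell markers differed between the libraries as well. The summed crypt stem cell markers (6 genes, of which Ascl2 was at 0 in SPF replicate 4) were 307 and 37.7 CPM for SPF, 404 and 151 for GF, and 132 and 173 for AF, highest in the same 2 libraries as Gpx2 and Nox1. Nos2 and Duox2 differed in this respect, since SPF replicate 4, with the fewest crypt markers, had more of both than either GF library. The 6 markers of the distal small intestine summed to 2638 and 2738 CPM for SPF, 2300 and 1800 for GF, and 1616 and 1356 for AF, in the order of Nos2 and Duox2, but the list as a whole did not follow that order. In GF against SPF 5 of its 6 genes were higher, with a median of 1.05, and in AF against SPF 4 were higher, with a median of 0.40, while in AF against GF 5 were lower, with a median of -0.51. Muc13, a membrane mucin and the largest part of the sum in all libraries, was at 2083 and 2361 CPM for SPF, 915 and 1240 for GF, and 915 and 852 for AF. Slc10a2, the bile acid transporter that defines the ileum, was not lowest in AF, at 6.37 and 3.02 CPM for SPF, 21.6 and 6.72 for GF, and 6.13 and 7.07 for AF. The part of region and of crypt content in the differences of the 5 genes was not tested beyond the fit with the crypt score.

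**Figure D5:**
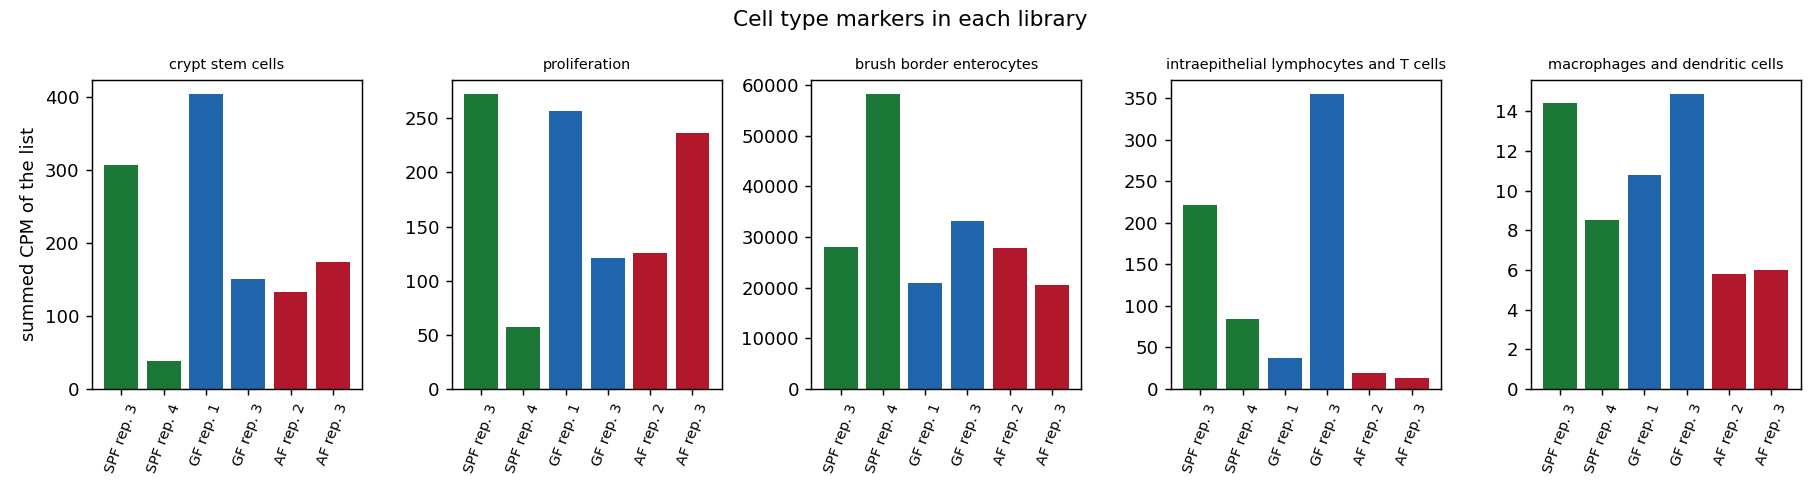
Summed CPM of 5 marker lists (panels, each with its own axis from 0) in the 6 libraries, coloured by group. SPF replicate 4 has the fewest crypt stem cell markers (37.7 CPM) and the most brush border markers, GF replicate 3 the most lymphocyte markers (355 CPM), and the 2 AF libraries the fewest macrophage and dendritic cell markers.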

How the data were processed

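Bulk RNA-seq was made from 6 libraries of sorted small intestinal epithelium. Alignment and counting tools are listed, per the submitters' processing notes, as RSEM, STAR 2.5.2b and edgeR 3.16.5, with the build GRCm38/mm10. The sources used here give neither the annotation nor the strand setting. Per the file headers, the authors deposited RSEM expected counts per gene, unscaled between libraries, and TPM, scaled by effective length to a fixed total. Per the file headers, other columns are RSEM's posterior SD and effective length.

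Expected counts were rounded (23.5% of values above 0 were not whole). Of 51912 genes, 51633 matched a GENCODE M21 symbol. After edgeR's filterByExpr and TMM scaling, all 6 libraries entered 1 quasi-likelihood fit with 3 residual degrees of freedom (common biological coefficient of variation 0.368), tested on simulated data. Calls were made below 0.05 after Benjamini-Hochberg adjustment over 13644 genes. Standard errors are absolute log2 fold changes over the square root of F. Log2 CPM for correlations used a prior count of 2. The members and gene lists were chosen with earlier results of these data known. Genes named were the 5 members, their closest partners, up to 2 genes per list with the smallest p (1 item is not reported here), and the 3 most correlated genes per member; genes that stand for a marker list were chosen after their values were seen. The RefSeq table of upstream sequences was matched for 4 of 5 members. Alternatives were DESeq2, other scaling, no low-count filter, limma on log2(TPM + 1) or log2(TPM + 0.1) with a minimum of 1 TPM in 2 libraries, the crypt score as a covariate, and each library left out. The versions used were DESeq2 1.42.0, limma 3.58.1, edgeR 4.0.16 and R 4.3.3, with its package data.table (1.17.8).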

Additional observations from a re-analysis of the deposited data

How the results depend on the processing

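Over 252 recalculations of the 5 genes' differences, 206 kept direction and side of the threshold, 27 newly passed it, 14 no longer passed and 5 reversed. All 14 losses were of Nos2 against SPF, and all 5 reversals of Gpx2. Gpx2 in GF against SPF gave 0.26 with limma on log2(TPM + 1), 0.26 on log2(TPM + 0.1) and -0.82 to 1.28 with single libraries left out, being above 0 without SPF replicate 3 and, at 0.06, without GF replicate 3. In GF and AF together against SPF it ranged from -1.52 to 0.57, the latter without SPF replicate 3.

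Counts of calls are given in the order GF against SPF, AF against GF, AF against SPF, and GF and AF together against SPF. Over all genes they were 2, 2, 6 and 4 in the reported fit, 80, 51, 272 and 248 with DESeq2, and 484, 264, 804 and 838 with no low-count filter. Library totals alone gave 0, 4, 7 and 0, limma on log2(TPM + 1) gave 5, 9, 8 and 0, limma on log2(TPM + 0.1) gave 4, 5, 7 and 3, and the crypt score in the model gave 3, 21, 140 and 53. With each library left out they ranged from 0 to 369, 0 to 9, 0 to 625 and 0 to 1063, each highest value coming without SPF replicate 3. Of the 5 genes, 0, 0, 1 and 1 were called in the reported fit, 1, 2, 3 and 3 with DESeq2, 3, 4, 4 and 3 with no filter, and 0, 1, 3 and 2 with the crypt score. None of the 5 was called on library totals or by limma on either TPM scale, and leaving out libraries gave 0 to 0, 0 to 1, 0 to 2 and 0 to 2. Median-of-ratios scaling left the count of the 5 as reported. The cause of these shifts was not tested.

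Nox1 had too few reads for the TPM filter and was not tested there. The fit had 3 residual degrees of freedom from 2 libraries a group. The counts of Nos2 were at the floor or just over it in both AF libraries. Those of Nox1, and of Duoxa2 in AF, were near the floor in single libraries. No paired analysis was possible because the groups share only replicate number 3.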
